A study of Homo sapiens with 5 samples.

Results

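The sites described here are peaks of Smad3 in BT549 cells that carry constitutively active Smad3 (caSmad3). Each shares at least 1 base with a Smad3 peak in each of the other Smad3 lists, whose peaks need not meet each other. These sites are called core peaks below. They were chosen by the overlap of peak positions among the 3 Smad3 lists and by nothing else. The rule gave 239 core peaks among the 6041 Smad3 peaks of caSmad3 cells (3.96%). Of these, 82 lay within 1 kb of a structural RNA gene (ribosomal RNA, small nuclear RNA, small nucleolar RNA and similar genes), 5 lay within 1 kb of a replication-dependent histone gene, and 152 did neither. These classes are described apart.

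BT549 is a long-established human cell line from a breast cancer of basal-like type, here infected with lentiviral vectors for stable expression of an HA control or of caSmad3. The Smad3 libraries came from HA cells after mock transfection with TGF-beta, from HA cells transfected with polyI:C with TGF-beta, and from caSmad3 cells transfected with polyI:C without added TGF-beta. TGF-beta was given at 1 ng/ml for 1.5 h. The IRF3 libraries came from HA cells and from caSmad3 cells, both transfected with polyI:C and without TGF-beta. Each of these 5 groups is 1 library, so differences between lists have no replicate check, and no test was made between them. The Smad3 lists of HA and caSmad3 cells differ in vector and TGF-beta, and that of mock-transfected cells in polyI:C as well, and the parts of these cannot be told apart. The IRF3 lists differ in vector only. No source used here states the promoter that drives caSmad3, its level in the cells or the uptake of polyI:C.

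The lists hold 353 Smad3 peaks (HA, mock with TGF-beta), 786 Smad3 peaks (HA, polyI:C with TGF-beta), 6041 Smad3 peaks (caSmad3), 4125 IRF3 peaks (HA) and 8067 IRF3 peaks (caSmad3), with positions in bases on hg38 and no height or score. Read depth is unknown, so the number of peaks in a list and the width of a peak cannot be corrected for depth. Intervals given with shares are 95% Clopper-Pearson intervals and cover counting error only. No input or nonspecific antibody library was analysed here.

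Smad3 is the transcription factor that TGF-beta receptors phosphorylate. It then joins Smad4, enters the nucleus and binds short DNA elements such as CAGAC or GC-rich boxes, often beside AP-1, and raises or lowers genes of growth arrest, matrix and feedback control. IRF3 is the factor that cytosolic double-stranded RNA, for which polyI:C stands in, activates to switch on interferon genes. Small nuclear RNAs are the RNA parts of the spliceosome. Their genes are short and intron-free. Apart from U6 and U6atac they are transcribed by RNA polymerase II, as are the genes of the small nucleolar RNAs U3, U8 and U13. Ribosomal RNA other than 5S is made by RNA polymerase I from repeated copies. The 5S, U6, 7SK, 7SL and transfer RNA genes are read by RNA polymerase III.

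Promoter sequence was available for 35 windows touched by a core peak, each 300 bases long (250 before the gene start to 50 after it, RefSeq, GRCh38.p14). 4 of them are shown because they contrast a classical Smad target with promoters that hold Smad or AP-1 letters. They read 5′ to 3′ on the gene's strand, and capitals mark CAGAC or its reverse complement and TGANTCA, the AP-1 element.
ID1, chr20:31605039-31605338, + strand: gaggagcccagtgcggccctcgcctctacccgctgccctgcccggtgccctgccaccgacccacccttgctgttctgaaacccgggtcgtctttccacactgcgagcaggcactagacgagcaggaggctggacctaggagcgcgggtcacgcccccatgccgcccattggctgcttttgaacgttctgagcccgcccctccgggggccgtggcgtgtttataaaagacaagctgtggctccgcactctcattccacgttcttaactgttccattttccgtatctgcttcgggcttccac
CCDC80, chr3:112641094-112641393, - strand: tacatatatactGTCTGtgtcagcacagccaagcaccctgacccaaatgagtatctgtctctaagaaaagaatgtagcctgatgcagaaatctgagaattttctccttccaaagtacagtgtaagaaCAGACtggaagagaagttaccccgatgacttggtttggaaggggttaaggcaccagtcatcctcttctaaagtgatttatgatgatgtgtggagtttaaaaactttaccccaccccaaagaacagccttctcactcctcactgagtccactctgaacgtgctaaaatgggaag
OGA, chr10:101818395-101818694, - strand: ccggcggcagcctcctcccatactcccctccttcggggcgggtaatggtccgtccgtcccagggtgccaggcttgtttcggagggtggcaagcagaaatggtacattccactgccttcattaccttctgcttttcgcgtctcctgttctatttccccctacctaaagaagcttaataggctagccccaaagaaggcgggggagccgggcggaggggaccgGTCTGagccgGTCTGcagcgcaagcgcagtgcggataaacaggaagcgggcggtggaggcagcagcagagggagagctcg
LOC105372663, chr20:51366185-51366484, + strand: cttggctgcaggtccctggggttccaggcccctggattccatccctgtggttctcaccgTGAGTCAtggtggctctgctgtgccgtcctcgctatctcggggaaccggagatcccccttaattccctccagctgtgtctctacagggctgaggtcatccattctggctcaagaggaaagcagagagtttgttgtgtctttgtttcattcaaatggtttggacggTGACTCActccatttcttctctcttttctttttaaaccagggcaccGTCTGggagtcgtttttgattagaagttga
ID1 encodes an inhibitor of basic helix-loop-helix factors and is a classical target of the TGF-beta family. CCDC80 encodes a secreted protein of the matrix, OGA encodes the enzyme that removes O-linked N-acetylglucosamine, and LOC105372663 is named only. The ID1 window held none of the motifs searched, although a core peak covered all 300 of its bases. In CCDC80, 1 of 2 CAGAC matches lay in the bases covered by all 3 Smad3 peaks (bases 128 to 132 of the window). In OGA, both matches did (bases 221 to 225 and 231 to 235). In LOC105372663, 1 of the TGANTCA matches did (bases 60 to 66).

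Motifs were counted on both strands in the 35 windows touched by a core peak and in all 35116 windows of the same length, of which 0.0997% were touched. CAGAC stood in 17 of the 35 windows (48.6%) against 45.3% of all windows. The palindrome GTCTAGAC stood in 0 of 35 against 0.202%. The GC-rich box GGCGC stood in 57.1% against 48.6% of all windows and 77.5% of the 1902 windows touched by any Smad3 peak of caSmad3 cells. TGANTCA stood in 1 window (2.86%, that of LOC105372663) against 7.71%. ATGCAAAT, the octamer known from snRNA and histone promoters, stood in 5 windows (14.3%) against 1.77%. These 5 were among the 16 windows touched by a core peak of the structural RNA and histone class. None of the 16 was the window of a named snRNA gene, and some of them overlap. The octamer stood in the windows of H2BC21, H2AC20, H2AC21 and SIRT4 and in 1 of LOC105374852. The SIRT4 window was touched by the core peak at RNU4-2 and that of LOC105374852 by the core peak at RNU2-63P. The 5 windows hold 4 separate octamers, since the H2BC21 and H2AC20 windows share 1. None of these matches lay wholly inside a Smad3 peak of any of the 3 lists. 0 of the 19 other windows held it. CAGAC may overlap GTCTAGAC, and a match is a description of letters and not a binding site.

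Core peaks made up very different shares of the lists that defined them. Of the mock list, 255 peaks (72.2%) overlapped a core peak, against 257 of the polyI:C list (32.7%). Of the 247 mock peaks that overlapped the polyI:C list, 244 also overlapped the caSmad3 list and 3 did not. A further 411 peaks of the caSmad3 list were shared with the polyI:C list only and 70 with the mock list only. The smallest number of bases by which a core peak met the list it shared least with was 5, followed by 6 and 13, with a median of 200. 4 core peaks shared under 50 bases. Just outside the rule, the nearest peak missed a list by 21 bases and the next by 92 bases, and 93 peaks lay within 1000 bases of both lists. Where a list held several peaks under a core peak, only the 1 sharing the most bases was taken as its partner. Widths and edges given below for partners are those of this peak. The mock and polyI:C peaks were not required to meet each other. In 8 of 239 core peaks, all in the other class, no base was common to the core peak and both control partners. Joined at a distance of 1 kb, the core peaks formed 209 sites, of which 193 held 1 peak.

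Structural RNA and histone genes took 87 of the 239 core peaks (36.4%, 30.3 to 42.8%). Over all Smad3 peaks of caSmad3 cells the share was 4.97%, with 3.23% at structural RNA genes and 1.74% at histone genes. The 87 peaks formed 60 sites, as repeated genes lie close together. Near-identical copies share reads, and no source used here states how reads with several matches were placed, so a peak on 1 copy may hold reads of another.

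The families with core peaks were those of the spliceosome, of histone mRNA and ribosomal RNA processing and of ribosomal RNA itself. For U1, which pairs with the 5′ splice site, 12 of the 24 peaks of the caSmad3 list were core. For U2, which pairs with the branch point, 3 of 5 were core. The U4 genes RNU4-1 and RNU4-2 gave 2 of 2, and the U5 genes 7 of 8. Pseudogenes of these families are counted in the structural RNA class. Among the U1 and U5 core peaks, those at RNU1-27P, RNU1-28P, RNU5E-4P, RNU5E-6P and RNU5A-8P lay at pseudogenes. RNU11 and RNU12 of the minor spliceosome, RNU7-1, whose RNA guides histone mRNA processing, and SNORD118 (U8) had 1 core peak each. All 5 peaks at the U3 genes (SNORD3A, SNORD3B-1, SNORD3B-2, SNORD3C and SNORD3D), which guide cleavage of the ribosomal precursor, were core. Among the other small nucleolar RNA genes 3 of 36 peaks were core, within 1 kb of SNORD12C, SNORD13 and SNORD2. That near SNORD2 lay 916 bases from it and covered all 300 bases of the EIF4A2 promoter window. That near SNORD12C lay 18 bases from it and covered all 300 bases of the ZFAS1 promoter window. A further 14 of 30 peaks were core at snRNA genes without a family name.

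Counting annotated genes other than pseudogenes, with a peak within 1 kb, the snRNA families read by RNA polymerase II had peaks in every list. Both U2 genes, both U4 genes, all 5 U3 genes and the single U7, U11, U12, U8 and U13 genes had a peak in each of the 5 lists. For U5, 4 of 5 genes had a peak in the mock list and 5 of 5 in each other list. Of 21 U1 genes, 10 had a peak in the mock list, 15 in the polyI:C list, 17 in the caSmad3 list, and 17 and 16 in the IRF3 lists of HA and caSmad3 cells. By contrast, genes read by RNA polymerase III seldom had a peak in the control Smad3 lists. Of 5 U6 genes, 0, 0 and 1 had a Smad3 peak in the mock, polyI:C and caSmad3 lists, and 0 and 2 an IRF3 peak. The 7SK gene had a peak in the IRF3 list of caSmad3 cells and in no other list. Of 3 7SL genes, 0, 0 and 2 had a Smad3 peak in the same order, and 1 and 3 an IRF3 peak. Of 425 transfer RNA genes, 1, 3 and 21 had a Smad3 peak, and the 1 in the mock list stood within 1 kb of the core peak at the histone gene H4C8. Core peaks at 5S, 7SK, 7SL, U6 and Y RNA genes numbered 0.

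**Figure D1:**
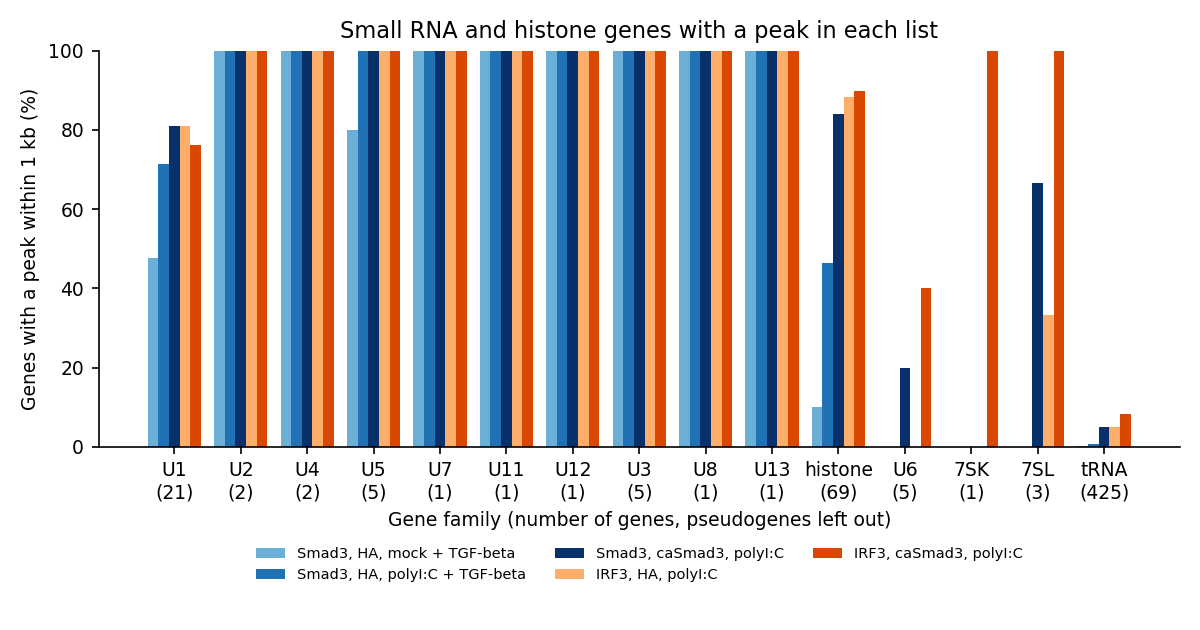
Share of genes of each family (number of genes in brackets, pseudogenes left out) with a peak within 1 kb, in percent, with 1 bar for each of the 5 lists. Families from U2 to U13 other than U5 are at 100% in every list, U1 and histone bars are lower in the mock and polyI:C lists, and U6, 7SK, 7SL and transfer RNA bars are at 0 or under 1% in the control Smad3 lists.

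In the caSmad3 list, the 47 core peaks at small nuclear RNA, U3 and U8 genes, pseudogenes included, each covered the whole RNA gene. These genes were 63 to 217 bases long (median 164), and the peaks in the caSmad3 list were 218 to 1446 bases wide (median 789). The centres of peak and gene lay a median of 126.5 bases apart, at most 443.5. Median widths of these peaks and their partners in the other lists were 652 (mock), 688 (polyI:C), 789 (caSmad3), 709 (IRF3, HA) and 692 bases (IRF3, caSmad3). A partner meets the caSmad3 peak but need not cover the RNA gene. Gene by gene, the caSmad3 peak was wider than the mock peak at 47 of 47 and wider than both control Smad3 peaks at 43, and the mock peak was the narrowest of the 5 at 37. At RNU2-2 (chr11:62841619-62841809), for example, the widths were 491, 675, 978, 692 and 647 bases in the same order. At RNU1-2 (chr1:16895980-16896143) they were 826, 1033, 1446, 877 and 1061 bases. At RNU7-1 (chr12:6943816-6943878) they were 224, 539, 565, 603 and 518 bases, and the mock peak (chr12:6943895-6944118) lay beside the gene without touching it. The mock peak was the narrowest of the 5 at each of these genes.

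A tandem array on chromosome 17 held 13 of these core peaks within 67.3 kb (chr17:43233439-43300773). It runs from RNU2-1 over 12 unnamed snRNA genes, and the 13 genes are 188 to 192 bases long. Peaks in the mock list ranged from 578 to 813 bases (median 708) and in the polyI:C list from 603 to 813 (median 703). In the caSmad3 list they ranged from 667 to 1124 bases (median 856). These ranges overlap, but the caSmad3 peak was wider than both control peaks at each of the 13 genes. The IRF3 widths had medians of 824 bases in HA cells and 1059 bases in caSmad3 cells.

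Ribosomal RNA genes held 32 core peaks of the 46 Smad3 peaks found there in the caSmad3 list. 31 of them fell on 4 copies of the repeat on chromosome 21, of which RNA45SN1, RNA45SN2 and RNA45SN3 are annotated as whole and the fourth (RNA18SP5, RNA5-8SP10 and LOC110467529) as pseudogenes. On each whole copy 8 core peaks stood in the same order. Measured from the start of the 5.8S gene, the first lay before the 18S gene, starting at -6297 to -5882 and ending at -4991 to -4914. The next covered nearly the whole 18S gene, with widths of 1895, 1828 and 1897 bases on RNA45SN1, RNA45SN2 and RNA45SN3. The next spanned the 5.8S gene and was 460 to 490 bases wide. Of 5 more, the first crossed the start of the 28S gene and the other 4 lay within it, starting at 1272 to 1289, 2579 to 2606, 3629 to 3658, 4895 to 4922 and 5459 to 5514. Edges of matched peaks on the 3 whole copies thus differed by 13 to 63 bases where the mature RNAs are encoded. Before the 18S gene they differed by 415 bases at the start and 77 bases at the end.

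The IRF3 lists marked the same places. Within 7 kb of the 5.8S start, on the copy of RNA45SN1, Smad3 peaks covered 5368 bases (10 peaks, mock), 5629 bases (9 peaks, polyI:C) and 6728 bases (10 peaks, caSmad3). IRF3 peaks covered 7143 bases (11 peaks, HA) and 8290 bases (12 peaks, caSmad3). Across the 4 copies the covered length was lower in each control Smad3 list than in each of the other 3 lists, and highest in the IRF3 list of caSmad3 cells. The peak before the 18S pseudogene on the fourth copy (chr21:8250502-8251870) lay 1971 bases from RNA18SP5 and so counts among the other core peaks.

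**Figure D2:**
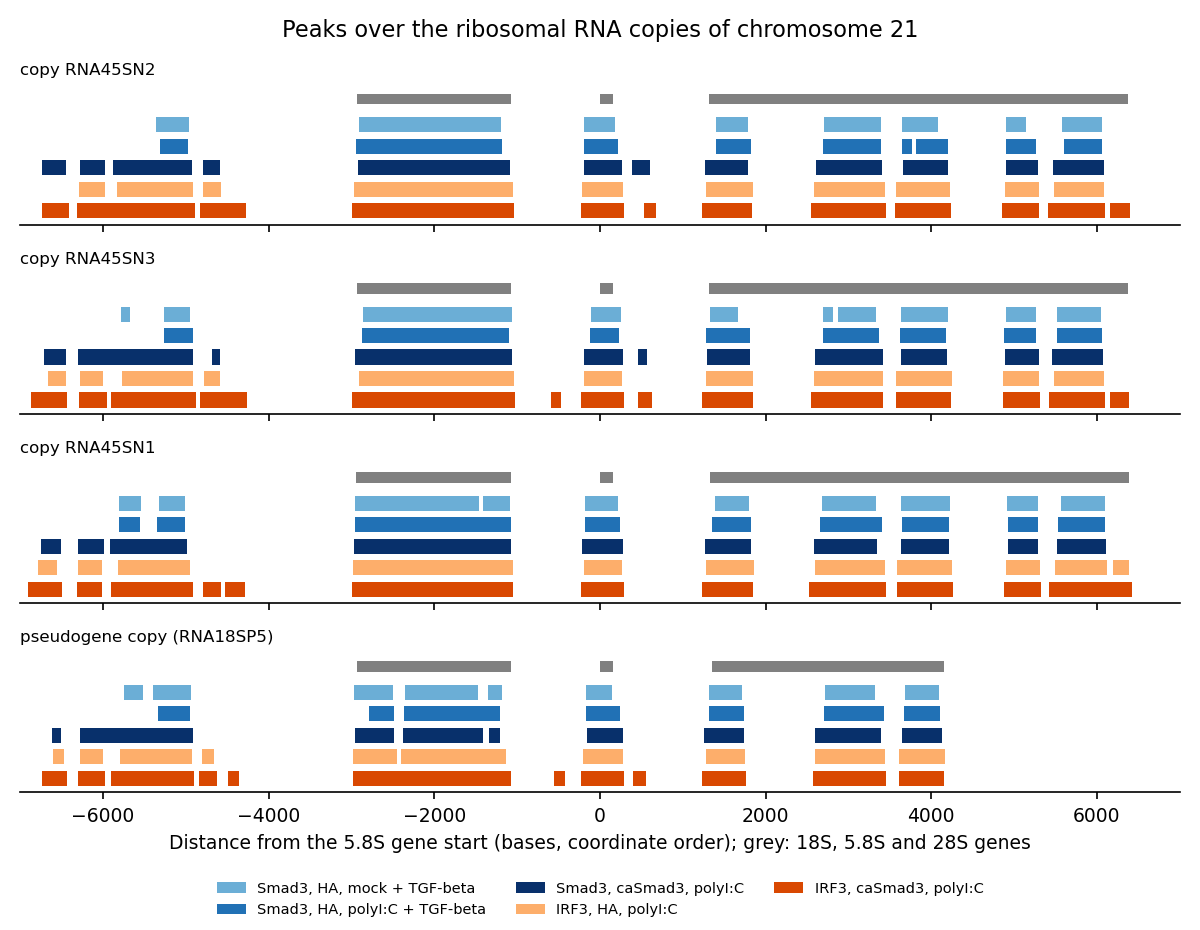
Peaks of the 5 lists (coloured rows) over 4 ribosomal RNA copies of chromosome 21, drawn to scale against the distance in bases from the start of the 5.8S gene, with the 18S, 5.8S and 28S genes in grey. The main blocks recur in each list on the whole copies, while some small blocks are missing from the control Smad3 lists. The pseudogene copy has no block beyond 4160 bases. The rows of the IRF3 list of caSmad3 cells cover the most bases.

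Histone genes held core peaks at about the rate of the whole list. 5 of the 105 peaks at replication-dependent histone genes in the caSmad3 list were core (4.76%, beside 3.96% of all peaks). They lay at H4C14, H3C14, H2AC20 and H2AC21 on chromosome 1 and at H4C8 on chromosome 6, whose products package new DNA in S phase. Of 69 histone genes, 7 had a peak within 1 kb in the mock list, 32 in the polyI:C list, 58 in the caSmad3 list, and 61 and 62 in the IRF3 lists. At H3C14 (chr1:149840954-149841363) the Smad3 peaks were 134, 193 and 410 bases wide in the mock, polyI:C and caSmad3 lists, while the IRF3 peaks were 2545 and 3449 bases wide. At H4C8 (chr6:26285089-26285717) the Smad3 widths were 132, 327 and 629 bases and the IRF3 widths 641 and 933 bases. The Smad3 peak of caSmad3 cells was the widest of the 3 for each of these 5 peaks, which form 4 sites, and the mock peak lay inside it.

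IRF3 was not used by the rule. In each of the IRF3 lists, all 82 core peaks at structural RNA genes overlapped a peak (100%, lower limit 95.6% for each). All 5 histone core peaks did so as well, but with 5 peaks the lower limit is 47.8%. Over all Smad3 peaks of caSmad3 cells the shares were 21.7% (IRF3, HA) and 31.6% (IRF3, caSmad3). Smad3 peaks at structural RNA genes that were not core overlapped IRF3 less fully, with 63.7% of 113 in HA cells (54.1 to 72.6%) and 72.6% in caSmad3 cells (63.4 to 80.5%). The non-core structural RNA peaks were narrower, with a median of 216 bases against 744, and 3 of them reached the lower quartile of the core widths. The core rule itself favours wide peaks. Of the 24 at least as wide as the lower quartile of the other core peaks, 18 met IRF3 in HA cells (75.0%, 53.3 to 90.2%) and 19 in caSmad3 cells (79.2%, 57.8 to 92.9%). Non-core histone peaks gave 74.0% and 82.0% of 100. These intervals treat each peak as 1 count, and neighbouring copies of a gene are not independent.

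The 152 other core peaks lay on 149 sites, and 3 of these sites held more than 1 peak. IRF3 peaks met 32 of them in HA cells (21.1%, 14.9 to 28.4%) and 38 in caSmad3 cells (25.0%, 18.3 to 32.7%). Over all peaks of this class the shares were 18.7% and 28.9%, so the core peaks stood near the background. 28 met IRF3 in both lists (18.4%, beside 17.6%), and 110 in neither (72.4%).

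Position relative to genes divided these values. At gene ends, defined as a centre within 1 kb of either end of a protein-coding gene, 11 of 17 core peaks met the IRF3 list of HA cells and 14 that of caSmad3 cells. The 1833 non-core peaks at gene ends gave 45.9% and 69.3%, within the wide core intervals (38.3 to 85.8% and 56.6 to 96.2%). Away from gene ends, 21 of 135 core peaks met IRF3 in HA cells (15.6%, 9.89 to 22.8%) and 24 in caSmad3 cells (17.8%, 11.7 to 25.3%). The 3756 non-core peaks away from gene ends gave 5.38% (4.68 to 6.15%) and 9.29% (8.38 to 10.3%), and the 758 of them that were at least as wide as the lower quartile of other core peaks gave 6.46% and 10.4%. Part of this excess lay close to structural RNA genes. With peaks within 20 kb of such genes left out, 13 of 123 core peaks met IRF3 in HA cells (10.6%, 5.75 to 17.4%) and 16 in caSmad3 cells (13.0%, 7.62 to 20.3%), against 4.88% and 8.74% of 3423 non-core peaks. The 690 of these that reached the same width gave 5.51% (3.93 to 7.48%) and 9.13% (7.09 to 11.5%). The intervals of the 123 core peaks, which were not selected by width, and of these 690 overlap in both lists.

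**Figure D3:**
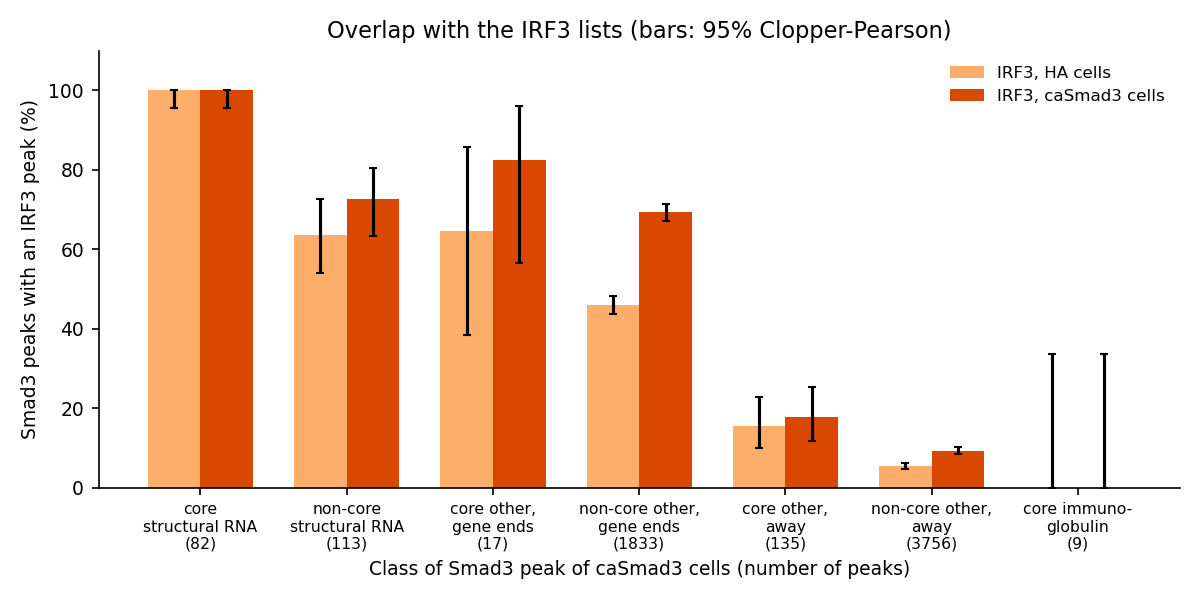
Share of Smad3 peaks of caSmad3 cells that overlap an IRF3 peak, in percent, by class of peak (number in brackets), with 95% Clopper-Pearson intervals that cover counting error only. Core structural RNA peaks stand at 100% in both IRF3 lists, core peaks away from gene ends at 15.6% and 17.8%, and immunoglobulin peaks at 0.

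Other core peaks lay farther from protein-coding genes than the rest of the list. 17 of 152 had their centre within 1 kb of a gene end (11.2%, 6.65 to 17.3%). The share was 33.1% of all peaks of the caSmad3 list and 32.2% of those of the same class. It was 24.0% of the 998 non-core peaks of the class at least as wide as the lower quartile of these core peaks. Those 998 had a median width of 383.5 bases, against 449 for the core peaks, so width was not matched. Peaks shared with the polyI:C list only gave 21.8% of 363. 59 core peaks lay inside or across a protein-coding gene (38.8%, against 54.8% of non-core peaks) and 42 lay over 50 kb from one (27.6% against 17.4%). The median distance from the centre to the nearest gene end was 34507 bases, against 12751 for non-core peaks. 71 lay in neither a protein-coding nor a long noncoding RNA gene (46.7% against 31.7%), though some of these lay on genes of other types. The share inside a long noncoding RNA gene, 21.7%, was close to the 20.3% of non-core peaks. Among the named long noncoding RNA genes with a core peak were MALAT1 and NEAT1, abundant nuclear RNAs of which NEAT1 builds paraspeckles, and JUN-DT, the divergent transcript of JUN. Chromosome 8 held 21 of the 152 (13.8%, against 6.64% of all peaks of the class), chromosome 9 held 22 (14.5% against 8.38%) and chromosome 20 held 19 (12.5% against 6.36%), whereas chromosome 3 held 9 (5.92% against 9.98%).

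The 17 core peaks at gene ends lay at SYNC, CCDC80, TRIB1, RPS6, TUSC1, NAIF1, IER5L, OGA, CLCF1, CFAP20, CLTC, UNK, ACTG1, MANBAL, TOB2 and, with 1 at each end, ID1. TRIB1 encodes a pseudokinase that directs protein degradation, RPS6 a protein of the small ribosomal subunit, CLTC the clathrin heavy chain and TOB2 an antiproliferative protein. At RPS6 (chr9:19379965-19380519) the Smad3 widths were 135, 431 and 555 bases and the IRF3 widths 518 and 668 bases. At CCDC80 (chr3:112640918-112641501) the Smad3 widths were 268, 301 and 584 bases and the IRF3 widths 351 and 413 bases. At IER5L (chr9:129177936-129178514) the mock peak was 99 bases wide and the polyI:C peak 142, and these shared no base with each other though both lay under the caSmad3 peak of 579 bases.

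Core peaks stood near some classical targets of TGF-beta. Of 44 listed TGF-beta and Smad target genes, 4 had one of the other core peaks within 10 kb (9.09%), namely ID1, ID3, LTBP2 and COL1A1, beside 0.424% of all 20037 protein-coding genes. By comparison, 27 of the 44 (61.4%) had any Smad3 peak of caSmad3 cells within 10 kb, beside 19.9% of all genes. Thus 23 of these 27 had a Smad3 peak in the caSmad3 list without a core peak. Of 35 mesenchymal and matrix genes 1 had a core peak (PLAU), and 12 had any. Of 25 housekeeping genes 1 had a core peak (ACTG1), and 16 had any. Core peaks were at 0 of 34 TGF-beta pathway components (8 had any), 0 of 30 AP-1 and immediate early genes (18 had any), 0 of 40 interferon and antiviral genes (3 had any), 0 of 22 NF-kB genes (4 had any) and 0 of 35 silent tissue-specific genes (2 had any).

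ID1 carried 2 core peaks. The first covered its start (chr20:31604929-31605569), with Smad3 widths of 109 bases (mock), 105 bases (polyI:C) and 641 bases (caSmad3) and IRF3 widths of 462 and 694 bases. The mock and polyI:C peaks there had only 2 bases in common. The second lay 687 bases past the other end of the gene (chr20:31607197-31607661), with widths of 202, 341 and 465 bases and no IRF3 peak. ID3, a close relative of ID1, had a core peak 764 bases from the gene (chr1:23556686-23557162) of 213, 553 and 477 bases, so the polyI:C peak was the widest.

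LTBP2 encodes a protein of matrix microfibrils that is related to those that hold latent TGF-beta. Its core peaks lay inside the gene (chr14:74571873-74572512; 109, 196 and 640 bases) and 7325 bases from it (chr14:74619562-74620136; 344, 328 and 575 bases). COL1A1 encodes the main chain of type I collagen, and its core peak lay 5198 bases from the gene (chr17:50177956-50178903) and 2027 bases from SGCA. Its widths were 452, 265 and 948 bases. At PLAU, the gene of urokinase, which activates plasmin and so opens the matrix, the core peak lay 1673 bases from the gene (chr10:73906738-73907159), with widths of 99, 135 and 422 bases. There the mock and polyI:C peaks had only 2 bases in common. Of these target genes, IRF3 overlapped a core peak at the start of ID1 alone. That of the housekeeping gene ACTG1, which encodes gamma-actin, was 99, 139 and 138 bases wide and met no IRF3 peak.

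The widest other core peak (chr17:59842579-59844530, 1952 bases) lay 323 bases past the end of VMP1, whose product builds autophagosomes, and 1241 bases past MIR21, a microRNA gene inside VMP1 whose product TGF-beta signalling is known to raise. The mock and polyI:C peaks there were 509 and 389 bases wide, and the IRF3 peaks 293 and 658 bases. The next was the peak before the 18S pseudogene. Then came a peak of 1307 bases inside SLC25A37, the mitochondrial iron importer, with Smad3 widths of 357 and 450 bases in the control lists. A peak of 1069 bases lay 6587 bases from SNX5 and met no IRF3 peak. One of 1045 bases covered the end of SYNC. Of the 20 widest, 6 lay inside or across a protein-coding gene away from its ends, in SLC25A37, BNC2, PRDM16, TRPM3, FGGY and FRMD4A. The other genes nearest to these 20, at 10198 bases or more, were NANOS3, LOC124904930, GPRIN2, TRMO, TRIM67, NCOA3, CIMIP1, LOC124900275 and ANKRD30A. The peak at LOC124904930 is the one that covers the LOC105372663 promoter shown above.

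Of the 20 widest other core peaks with IRF3 in both lists, several stood close to a structural RNA gene though outside the 1 kb limit. The peak near VMP1 lay 2907 bases from RNU6-450P, and that in MALAT1 lay 6792 bases from the RNA gene MASCRNA. The peak near CROCC lay 8942 bases from RNU1-2. The peak near PPIAL4H lay 10469 bases and that near RPS6KA1 18129 bases from an snRNA gene. A peak on chromosome 21 (chr21:8988204-8988750) lay 541631 bases from RNA45SN1. The peak in MALAT1 (chr11:65498869-65499324) had Smad3 widths of 164, 254 and 456 bases and IRF3 widths of 490 and 522 bases. The peak in FRMD4A had Smad3 widths of 464, 660 and 716 bases and IRF3 widths of 455 and 671 bases, and lay 457430 bases from the nearest structural RNA gene. The other named genes of this group were SYNC, ID1, TEX14, CCDC80, IER5L, RPS6, ATAD2, ELAVL2, TOB2, TRIB1 and BCAS4. Of the 134 genes nearest to an other core peak, 121 had 1 such peak, 10 had 2 and 3 had more. ELAVL2, a neuronal RNA-binding protein gene, had 3. Those that lay 111506 and 111773 bases from it met the same mock peak and the same polyI:C peak, and form 1 site. TMEM121 with 5 and LOC124905368 with 3 lie nearest to the immunoglobulin peaks.

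9 of the 152 other core peaks lay on immunoglobulin segments, the gene pieces that B cells join to make antibodies (5.92%; 0.281% over all Smad3 peaks of caSmad3 cells). They stood at IGHG1 (2 peaks), IGHG2, IGHG4 and IGHV3-23 of the heavy chain and at IGKV1-22, IGKV1D-13, IGKV1D-42 and IGKV1D-8 of the kappa light chain. In the 3 Smad3 lists 12, 16 and 17 peaks lay on such segments. The IRF3 lists held 0 of 4125 and 0 of 8067, which, with 3 counts taken as the limit of a count of 0, allow shares of up to 0.0727% and 0.0372%.

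These peaks had nearly the same edges in each Smad3 list. At IGHG2 the peak ran from 105643821 to 105643973 on chromosome 14 in the caSmad3 list, from 105643820 to 105643973 in the mock list and from 105643819 to 105643974 in the polyI:C list. The longer peak at IGHG1 was 240, 239 and 236 bases wide in the mock, polyI:C and caSmad3 lists. In 6 of 9, the largest difference of an edge across the 3 lists was 5 bases or less (median 3, range 2 to 55). No peak of the other classes did this, with 0 of 82 at structural RNA genes (median 153.5), 0 of 5 at histone genes (median 299) and 0 of 143 other core peaks (median 193). Of the 143, 19 were narrow (under 250 bases), and 0 of these did so (median 92). The origin of these peaks was not tested.

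**Figure D4:**
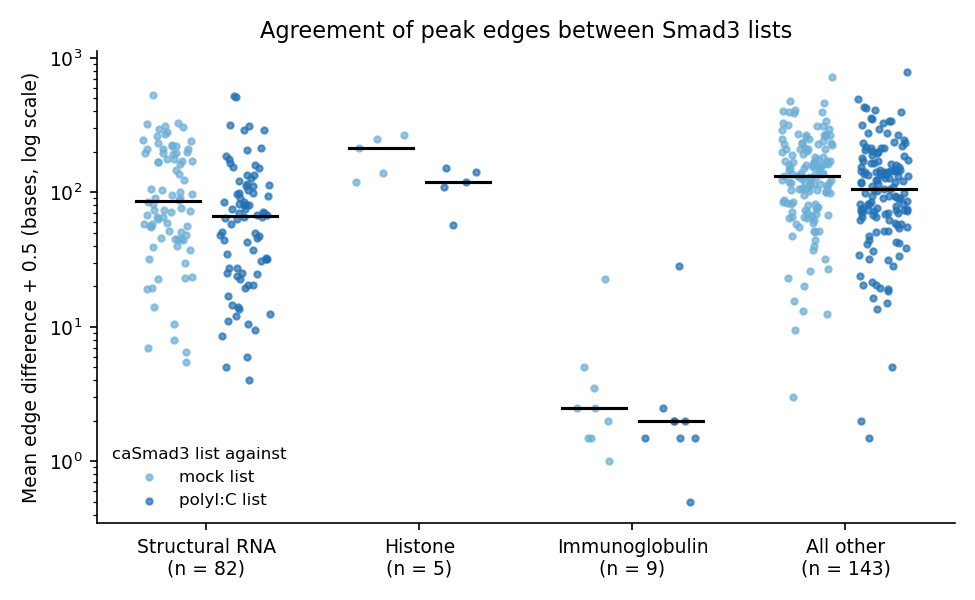
Mean distance in bases (plus 0.5, log scale) of the edges of each core peak in the caSmad3 list from the edges of its partner in the mock list and in the polyI:C list, by class, with the median as a black line. Immunoglobulin peaks lie lowest, and the other 3 classes overlap each other at larger distances.

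Widths at the other core peaks were larger in the longer lists. The medians were 164.5 bases (mock), 213 bases (polyI:C) and 449 bases (caSmad3), while non-core peaks of the caSmad3 list had a median of 173 bases. A wide peak meets another list more readily under a rule of 1 shared base. The gap between core and non-core widths is therefore not independent of the rule. At structural RNA genes the medians were 486.5, 609.5 and 744 bases, and at histone genes 134, 327 and 533 bases. At immunoglobulin segments they were 161, 165 and 163 bases. The caSmad3 peak was the widest of the 3 at 208 of 239 core peaks and at 131 of the 152 others. The mock peak lay wholly inside the caSmad3 peak at 124 of the 143 other core peaks without immunoglobulin segments, and the polyI:C peak at 109. Since each list is 1 library of unknown depth, depth and cell state cannot be told apart in these widths.

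**Figure D5:**
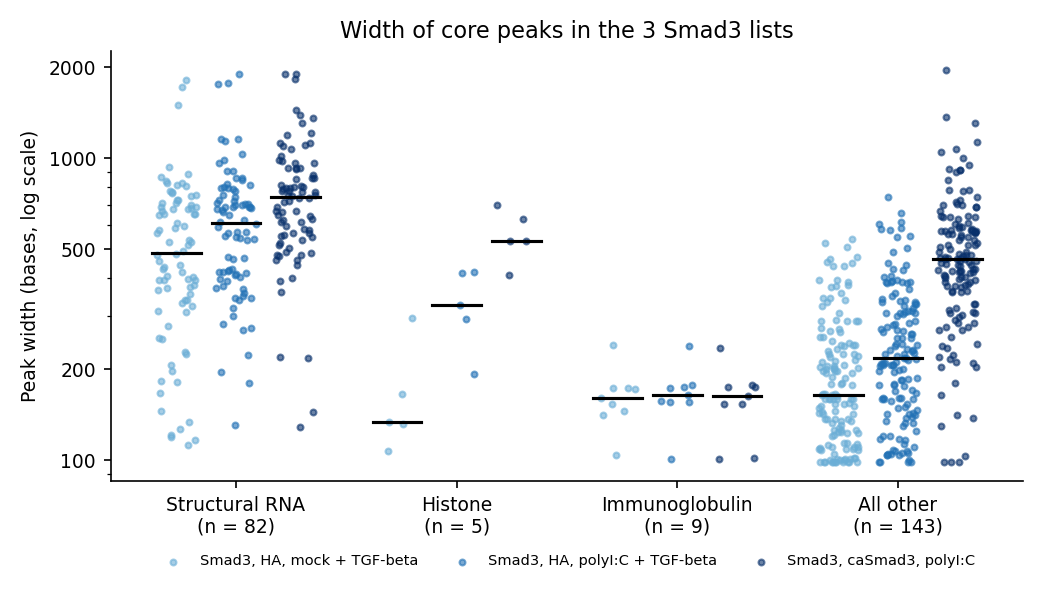
Width in bases (log scale) of each core peak and of its partners in the control Smad3 lists, by class, with the median as a black line. Medians are 161 to 165 bases in all 3 lists for immunoglobulin segments, and are larger in the caSmad3 than in the mock list in the other 3 classes.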

How the data were processed

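ChIP-seq of Smad3 (3 libraries) and IRF3 (2 libraries) was made in BT549 cells. The authors deposited 1 peak list per library, with positions in bases and a peak name and no other values. Bowtie2 2.2.2.6, MACS2 2.1.0 and the build hg38 are named in the submitters' processing notes. Calling thresholds, control libraries, duplicate handling and read depth are not given in the sources used.

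Core peaks, their classes and all shares were computed with Python 3.11.15, pandas 2.3.3, numpy 2.4.6 and SciPy 1.17.1, and figures with matplotlib 3.10.9. Peaks overlapped when they shared at least 1 base. Gene positions came from RefSeq (GRCh38.p14) without strand, so both ends of a gene were used. All 263 genes of the 8 lists matched. The overlap code was tested on shifted copies of the caSmad3 peaks, and the joining code on a small made-up set of peaks.

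The members and lists were chosen with earlier results of these data known. Genes named are those of the RNA and histone classes, of the lists, the 20 widest other core peaks, up to 20 with IRF3 in both lists, and genes with 3 or more such peaks. One peak that this rule names is not reported here. TRIB1, CLTC, the gene-end peaks, MALAT1, NEAT1, JUN-DT, MIR21 and the immunoglobulin segments were also named, after their values were seen, and the octamer motif was added then. Alternatives were a stricter overlap, wider peaks only, other distances and leaving out chromosomes.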

Additional observations from a re-analysis of the deposited data

How the results depend on the processing

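Of 54 alternative values, 36 stayed within 1.5 times the reported count or inside the 95% interval of the reported share or median, and 18 did not. With an overlap of 50% of both Smad3 peaks, the core fell to 112 peaks on 87 sites, of which 59.8% lay at structural RNA or histone genes. Of the other core peaks then left, 4.44% lay at gene ends, 28.9% met IRF3 in HA cells, the median width was 330 bases and 1 TGF-beta target was near one. With the wider 50% of peaks of each list, the core was 140 peaks on 115 sites, 54.3% of them at structural RNA or histone genes, with a median width of 515.5 bases for the others. Without chromosomes 3, 8, 9 and 20 the structural RNA and histone share was 50.6%, with 164 core peaks on 136 sites and 3 TGF-beta targets. When 50% of both peaks had to overlap IRF3, the other core peaks gave 15.1% in caSmad3 cells and 14.5% in HA cells. Ends of all genes raised the gene-end share to 26.3% and a distance of 5 kb to 19.1%. A window of 50 kb brought 7 TGF-beta targets. Shares over all peaks or all genes were not computed under these alternatives. The values therefore do not tell whether the core still differed from the whole list or from all genes. The settings without immunoglobulin segments and with 20 kb around structural RNA genes were chosen after seeing the data. No paired analysis was possible because each group is 1 library. Depth is unknown and limits every comparison of list lengths and widths.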
